A study of Vigna radiata with 9 samples.

Results

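A pair of Rubisco activase genes and a chloroplast carbonic anhydrase gene of mung bean (Vigna radiata) were followed across 9 leaf RNA libraries, as 3 of the 26966 genes in the count table. The genes were picked by identifier as LOC106757684 (described as Ribulose bisphosphate carboxylase/oxygenase activase, chloroplastic; called RCA here), LOC106764908 (activase 1, chloroplastic; called RCA1) and LOC106771342 (Carbonic anhydrase, chloroplastic). Their lower levels in chilled leaves were known when they were picked, so that the values of chilled against unchilled leaves are given as a description without a test. The comparison of the 2 chilled groups was tested.

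The study asked how the growth retardant uniconazole alters the cold response of leaves. Wild-type plants of a single variety, Lvfeng No.2, were sprayed at the onset of flowering, and each pot was counted as 1 replicate, with 3 per group. The unchilled group, CK, received water and stayed in the natural environment. The chilled group, LT, received water and, 36 h later, was moved for 4 days to a phytotron held at 15 °C under the natural day length. The third group, LT+S, had the same chilling after a spray of 50 mg/L uniconazole. Chilling and the change of growth place cannot be told apart in any comparison with CK. In the labels of LT+S the number attached to the compound goes up by 1 from library to library (S3305, then S3306, then S3307), but the methods name only S3307, and the group was handled as a single treatment.

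Rubisco, the carboxylase of the Calvin cycle, is inactivated when sugar phosphates bind tightly to its active sites. Rubisco activase is a chloroplast ATPase that removes them, and in Arabidopsis the longer form of the enzyme is adjusted to light through a chloroplast thioredoxin. Carbonic anhydrase interconverts CO2 and bicarbonate. The beta type of the chloroplast stroma is among the most abundant soluble proteins of leaves after Rubisco, and in Arabidopsis beta carbonic anhydrases also take part in the closing of stomata by CO2.

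In the Vradiata_ver6 assembly, RCA lies on chromosome 3 from 9804888 to 9808197, RCA1 on chromosome 6 from 6288892 to 6291684, and the carbonic anhydrase gene on chromosome 1 from 1285929 to 1290480. RefSeq annotates 1 transcript model for each activase gene and 3 for the carbonic anhydrase gene. Reads were counted over the whole gene, so that transcript forms, among them the long and the short form of activase, were not separated. How a read matching more than 1 gene was counted is not given in the sources used here, and counts of close paralogs are uncertain to that degree. Library totals ran from 19561896 to 21617340 counts.

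RCA was the gene with the most counts in each of the 9 libraries. It took 3.43 to 4.23% of all counts in CK, 1.09 to 2.49% in LT, and in LT+S 1.31 to 2.12%. RCA1 held between the 2nd and the 7th place in every library, at 1.08 to 1.27% of counts in CK, 0.477 to 0.608% in LT, and in LT+S 0.481 to 0.531%. Carbonic anhydrase stood at place 7, 6 and 5 in CK replicates 1 to 3, and at place 2664, 412 and 3031 in LT. In LT+S it stood at place 924, 468 and 777. Together the 3 genes gave 5.61 to 6.20% of the counts of a CK library and 1.58 to 3.13% of those of a chilled library. Counts also depend on the length of a transcript, which was not used here, and these places compare reads and not molecules.

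The level of RCA, in TMM-scaled CPM (counts relative to library size), where TMM evens out the composition of the libraries, was 53047, 49756 and 43994 in CK replicates 1 to 3. It was 15597, 23611 and 9408 in LT, and 11972, 16197 and 19085 in LT+S. All chilled libraries lay under all CK libraries, and the LT+S libraries lay within the range of LT. The means were 48933 ± 4582 (SD, n = 3) in CK, 16205 ± 7121 in LT and 15751 ± 3577 in LT+S. On the log2 scale RCA was at -1.59 (SE 0.41) in LT and at -1.64 (SE 0.41) in LT+S relative to CK, which is 3.02-fold and 3.11-fold lower. The chilled libraries differed among themselves more than those of CK did, with the highest level 2.51 times the lowest in LT, 1.59 times in LT+S and 1.21 times in CK.

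RCA1 followed the same course with a narrower spread. Its level was 15926, 14707 and 13870 CPM in CK, 4657, 5770 and 4098 CPM in LT, and 4391, 4643 and 4512 CPM in LT+S. CK again stood above every chilled library, and LT+S lay inside the range of LT. The mean was 14834 ± 1034 CPM (SD, n = 3) in CK, 4842 ± 851 in LT and 4515 ± 126 in LT+S. Relative to CK the log2 difference was -1.62 (SE 0.23) in LT and -1.72 (SE 0.23) in LT+S, which is 3.06-fold and 3.29-fold lower.

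Carbonic anhydrase showed a far larger difference. The level was 8821, 10521 and 14024 CPM in CK, and 70.6, 299.8 and 65.8 CPM in LT. In LT+S it was 160.4, 248 and 174 CPM. No chilled library came near a CK library, and within LT, replicate 2 stood 4.55 times above replicate 3, wider than the 1.59 times between the extremes of CK or the 1.55 times of LT+S. The mean was 11122 ± 2653 CPM (SD, n = 3) in CK, 145 ± 134 in LT and 194 ± 47.1 in LT+S. The log2 difference from CK was -6.26 (SE 0.69) in LT and -5.84 (SE 0.68) in LT+S, or 76.5-fold and 57.3-fold lower. Without LT replicate 2 the difference of LT from CK was -7.34, so that this library sets the size of the LT value but not its direction. In bulk leaf RNA, fewer cells of a type and less RNA per cell cannot be told apart.

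**Figure D1:**
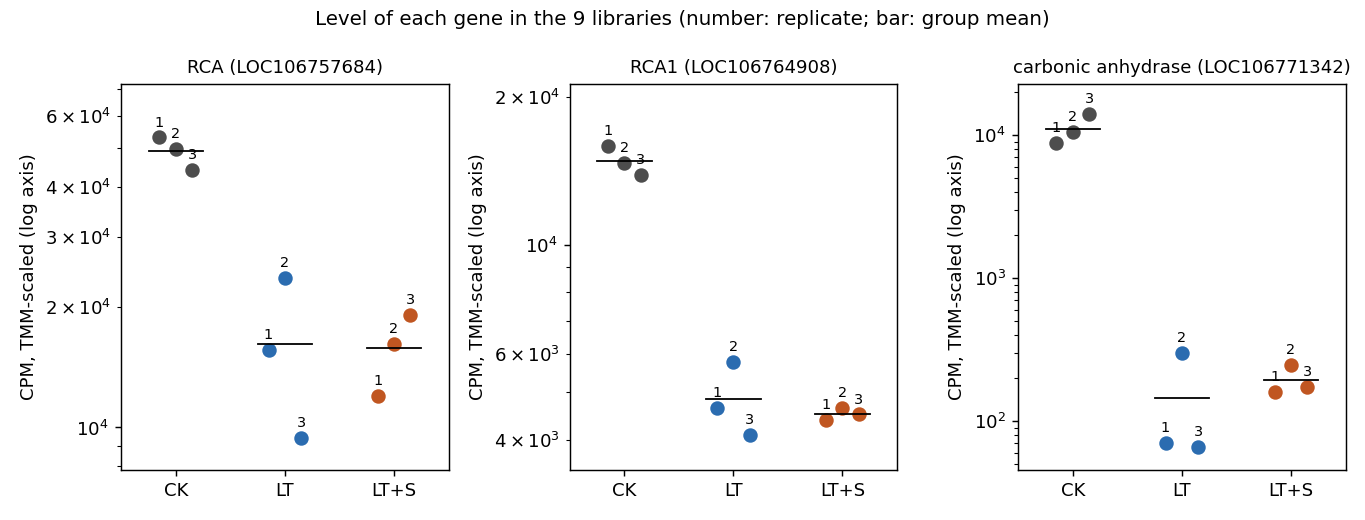
Level of RCA, RCA1 and carbonic anhydrase in each library, in TMM-scaled CPM on log axes, with the replicate number above each point and a bar at the group mean (n = 3). CK libraries stand above all chilled libraries for each gene, LT and LT+S overlap, and the gap is widest for carbonic anhydrase (8821 to 14024 CPM in CK against 65.8 to 299.8 in the chilled groups).

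All 3 genes were among those called lower by edgeR's quasi-likelihood test at a Benjamini-Hochberg adjusted p under 0.05 against CK, in LT and in LT+S. That count follows from the way the genes were picked, and nothing is read from it. Over all genes the CK libraries did not overlap those of LT for 54.8% and those of LT+S for 55.7%. Of the 19304 genes tested, the calls in LT took in 23.7% as lower and 22.8% as higher than CK, and the calls in LT+S 21.9% as lower and 19.7% as higher. Set against all genes, 6.93% had a lower log2 value than RCA in LT against CK, 6.72% a lower value than RCA1, and 0.0518% a lower value than carbonic anhydrase, which was at place 11 from the lowest. In LT+S against CK these shares were 5.20, 4.67 and 0.0725%, with carbonic anhydrase at place 15.

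Scaling matters for the size of these differences, because TMM factors ran from 0.781 to 0.804 in CK and above 1 in every chilled library. With library totals in place of TMM, the median of all genes moved from 0.01 to 0.52 in LT against CK and to 0.50 in LT+S against CK. RCA, RCA1 and carbonic anhydrase were then at -1.11, -1.12 and -5.80 in LT and at -1.14, -1.22 and -5.34 in LT+S, still lower than in CK. The calls over all genes, 4394 higher and 4574 lower in LT and 3811 and 4231 in LT+S, became 9275 and 2314 in LT and 8979 and 1997 in LT+S, so that higher genes went from 49.0 to 80.0% of the calls in LT and from 47.4 to 81.8% in LT+S.

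A ratio of counts within a library does not depend on scaling. RCA had 3.17 to 3.38 times the counts of RCA1 in CK, 2.30 to 4.09 times in LT, and in LT+S 2.73 to 4.23 times. The ranges of LT and LT+S enclosed that of CK, and the mean log2 ratio was 1.72 ± 0.05 (SD, n = 3), 1.66 ± 0.42 and 1.78 ± 0.32. Between LT+S and LT it differed by 0.12 (exact permutation test, 2-sided, p = 0.6, and p = 0.75 after adjustment over 5 ratios). With 3 libraries against 3 this test cannot give a p under 0.1. The ratio ranged more widely among the chilled libraries than in CK, and this difference in spread was not tested.

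Carbonic anhydrase, by contrast, lost ground to the activases within each chilled library. Its counts were 0.166 to 0.319 of those of RCA in CK, 0.00453 to 0.0127 in LT, and in LT+S 0.00913 to 0.0153. The mean log2 ratio was 0.74 higher in LT+S than in LT, with overlapping ranges (exact permutation test, 2-sided, p = 0.2, adjusted p = 0.5). Against RCA1 the ratio was 0.554 to 1.01 in CK, 0.0152 to 0.0520 in LT, and in LT+S 0.0365 to 0.0534, and LT+S differed from LT by 0.86 (exact p = 0.3, adjusted p = 0.5).

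The small subunit of Rubisco, the protein whose partner the activases act on, gave another reference. The 2 abundant small chain genes, LOC106773825 and LOC106774174, lie near each other on chromosome 1, from 14493130 to 14494173 and from 14516466 to 14517444. RCA had 1.81 to 4.66 times their summed counts in CK, 8.10 to 12.1 times in LT, and in LT+S 5.83 to 7.31 times. RCA thus stood higher relative to the small chain genes in chilled leaves, and the LT+S libraries lay between CK and LT, at a log2 ratio 0.53 lower than in LT (exact permutation test, 2-sided, p = 0.1, the smallest it can give, adjusted p = 0.5). Carbonic anhydrase stood lower relative to them in chilled leaves, with 0.576 to 0.775 of their counts in CK, 0.0546 to 0.103 in LT, and in LT+S 0.0532 to 0.103. For that ratio LT+S differed from LT by 0.21 (exact p = 0.9, adjusted p = 0.9).

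**Figure D2:**
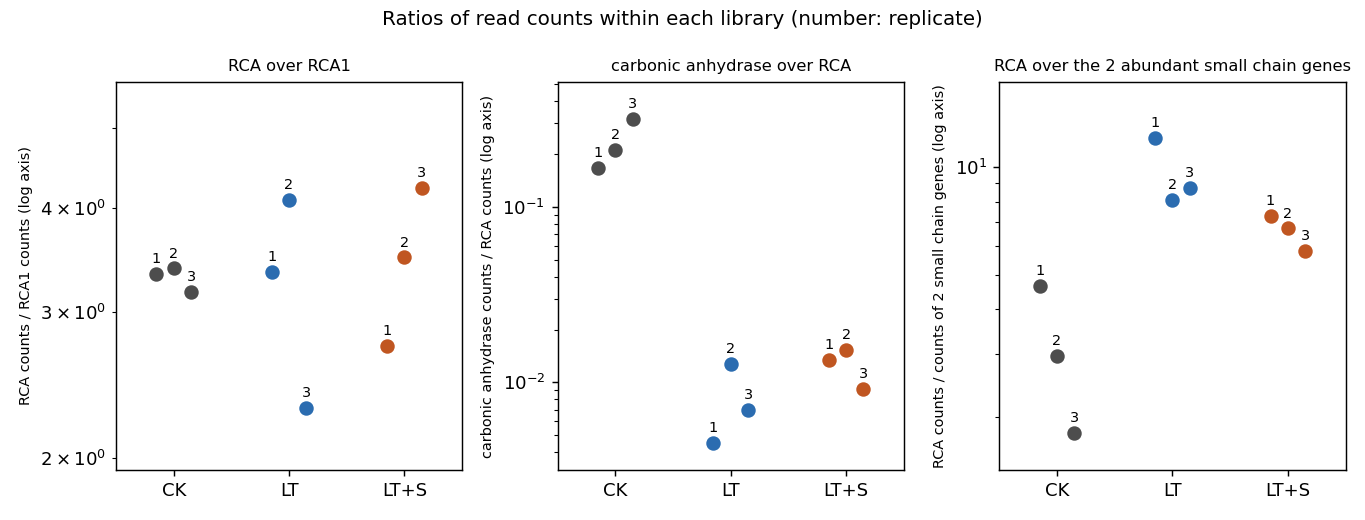
Ratios of read counts within each library on log axes, for RCA over RCA1, carbonic anhydrase over RCA, and RCA over the 2 abundant small chain genes; numbers mark replicates. RCA over RCA1 overlaps in all groups (2.30 to 4.23 in chilled leaves around 3.17 to 3.38 in CK), carbonic anhydrase over RCA drops in chilled leaves, and RCA over the small chain genes is higher in chilled leaves.

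The gene table holds 4 genes described as Rubisco activase, and RCA and RCA1 supplied nearly all of their reads. RCA gave 76.3 ± 0.57% (SD, n = 3) of the activase counts in CK, 74.9 ± 5.75% in LT and 76.3 ± 4.14% in LT+S, and RCA1 gave 23.2 ± 0.61, 24.0 ± 5.30 and 22.5 ± 3.73%. Summed over the 4 genes, the level was 64109 ± 5662 CPM in CK, 21256 ± 7958 in LT and 20504 ± 3616 in LT+S.

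The other activase genes were minor and did not behave alike. LOC106761922, on chromosome 5, fell from 223 ± 9.0 CPM (SD, n = 3) in CK to 66.4 ± 23.2 in LT (log2 -1.75, SE 0.23, edgeR adjusted p = 0.000465) and 80.6 ± 13.6 in LT+S (-1.47, adjusted p = 0.00132). LOC106774376, on chromosome 9, did not pass the test, at 194, 122 and 41.6 CPM in CK, 153, 106 and 168 in LT and 190.0, 158 and 123 in LT+S. Its log2 difference from CK was 0.26 (SE 0.45, adjusted p = 0.667) in LT and 0.40 (SE 0.45, adjusted p = 0.515) in LT+S, and both turned below 0 without CK replicate 3. Its share of activase counts was 0.180 ± 0.104% in CK and 0.778 ± 0.435 and 0.802 ± 0.316% in LT and LT+S.

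The carbonic anhydrase family changed its make-up. Of the counts of 23 genes described as carbonic anhydrase, LOC106771342 supplied 95.2 to 96.3% in CK, 18.6 to 48.3% in LT, and in LT+S 35.0 to 44.9%. Among the 8 described as chloroplastic its mean share was 97.6% in CK, 41.3 ± 18.5% (SD, n = 3) in LT and 54.1 ± 6.66% in LT+S. The family as a whole went from 11606 ± 2706 CPM in CK to 448 ± 150 in LT and 501 ± 47.5 in LT+S. The 22 genes other than LOC106771342 together held 446 to 545 CPM in CK, 288 to 321 in LT, and in LT+S 298 to 318.

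Of the 15 tested genes of the family other than LOC106771342, 9 were lower and 1 higher in LT than in CK, and 8 were lower and 2 higher in LT+S (edgeR, adjusted p under 0.05). Their median log2 difference was -0.43 and -0.46, beside 0.01 for all genes tested in both comparisons. With library totals 5 were called lower in each. Both other genes with the description Carbonic anhydrase, chloroplastic, fell: LOC106779026 from 91.2 ± 13 CPM (SD, n = 3) to 29.7 ± 5.92 in LT (log2 -1.62) and 33.1 ± 5.85 in LT+S (-1.46), and LOC106779923 from 31.0 ± 3.69 to 14.2 ± 3.35 (-1.13) and 13.2 ± 1.61 (-1.23). Alpha carbonic anhydrase 1, chloroplastic (LOC106771245) fell by 2.71 in LT and by 2.61 in LT+S on the log2 scale. A pair of genes described as alpha carbonic anhydrase 7 also fell, LOC106759052 by 3.05 and by 2.06, and LOC106759099, a gene of about 2 CPM in CK (2.22 ± 0.653), by 2.50 and by 2.33.

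Beta carbonic anhydrase 5, chloroplastic (LOC106774433) rose instead. Its level was 49.1, 44.9 and 45.6 CPM in CK, 61.3, 70.1 and 70.6 in LT and 71.1, 64.4 and 73.8 in LT+S. The chilled libraries all stood above CK, by 0.53 on the log2 scale in LT (SE 0.10, edgeR adjusted p = 0.00255) and 0.58 in LT+S (SE 0.10, adjusted p = 0.0019). Its share of the family's counts went from a mean of 0.417% in CK to 15.9% in LT and 14.1% in LT+S. A second gene of that description, LOC106778389, did not pass, at 0.43 (adjusted p = 0.193) and 0.15 (adjusted p = 0.654), nor did beta carbonic anhydrase 2 (LOC106761538) at 0.59 (adjusted p = 0.333) and 0.57 (adjusted p = 0.369).

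Gamma carbonic anhydrases, which in plants are part of mitochondrial complex I, moved little. LOC106761992, LOC106765552 and LOC106778103 were lower in both comparisons, at log2 values from -0.43 to -0.58, and LOC106761993 passed in LT (-0.40, adjusted p = 0.0361) but missed the threshold in LT+S (-0.33, adjusted p = 0.0792), a call in LT that was lost in 7 of 9 omissions of a single library, while LOC106758936 did not pass. These calls rest on the scaling: with library totals LOC106761993 and LOC106778103 turned above 0 and the others lost their call. Of the remaining tested alpha carbonic anhydrase 7 genes, LOC106771665 did not pass against CK. LOC106771451 was near the lower limit of detection, at 0.926 ± 0.254 CPM (SD, n = 3) in CK and 1.90 ± 0.351 in LT+S. It narrowly passed in LT+S (1.03, adjusted p = 0.0463, a call lost when any of 6 single libraries was left out).

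**Figure D3:**
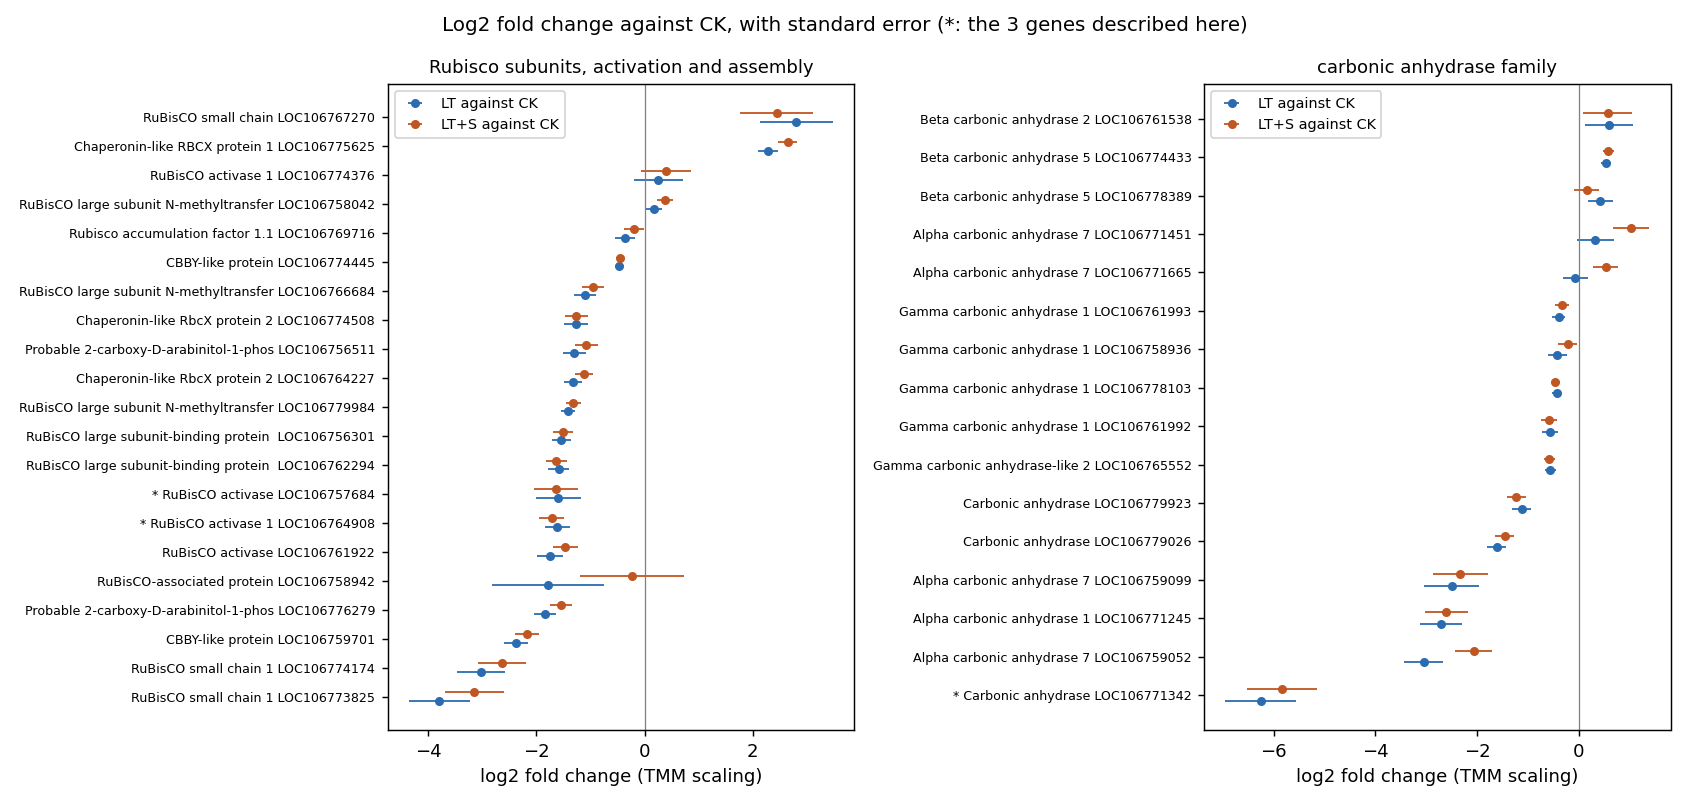
Log2 fold change of LT (blue) and LT+S (orange) against CK with standard errors, under TMM scaling, for genes of Rubisco subunits, activation and assembly (left) and the carbonic anhydrase family (right); asterisks mark RCA, RCA1 and LOC106771342. The activases lie amid the genes that fell, LOC106771342 lies lowest in its family at -6.26 and -5.84, and beta carbonic anhydrase 5 LOC106774433 lies above 0 at 0.53 and 0.58.

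Most genes for the small subunit, the assembly and the upkeep of Rubisco were lower. Of 19 tested genes of Rubisco subunits, activation and assembly other than RCA and RCA1, 13 were lower and 2 higher in LT, with a median of -1.33, and 13 lower and 2 higher in LT+S, with a median of -1.12 (edgeR, adjusted p under 0.05). The small chain genes fell furthest. LOC106773825 went from 7656 ± 3305 CPM (SD, n = 3) in CK to 552 ± 334 in LT and 864 ± 376 in LT+S (log2 -3.79, adjusted p = 0.000785, and -3.15, adjusted p = 0.00209), and LOC106774174 from 9843 ± 3217 to 1209 ± 672 and 1575 ± 443 (-3.03 and -2.64). The rare small chain gene, LOC106767270, rose, with 2, 4 and 12 counts in CK, 57, 80 and 46 in LT and 83, 30 and 32 in LT+S (log2 2.81, adjusted p = 0.00869, and 2.44, adjusted p = 0.0185). The second of these calls was lost without CK replicate 2 or LT+S replicate 1.

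The chaperonin subunits that fold the large subunit, LOC106756301 (alpha) and LOC106762294 (beta), fell by 1.54 and by 1.59 in LT on the log2 scale, close to the values of the activases, and by 1.50 and by 1.63 in LT+S. RbcX proteins help the large subunits to assemble. Both genes described as RbcX protein 2, LOC106764227 and LOC106774508, fell by 1.33 and by 1.27 in LT and by 1.12 and by 1.26 in LT+S. RBCX protein 1 (LOC106775625) rose from 2.94 ± 0.248 CPM (SD, n = 3) to 14.4 ± 2.29 in LT and 18.5 ± 2.87 in LT+S (log2 2.29, edgeR adjusted p = 5.3e-05, and 2.65, adjusted p = 4.47e-05), with no overlap. Rubisco accumulation factor 1.1 (LOC106769716) did not pass, at -0.36 and -0.20.

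Genes of enzymes that dispose of inhibitory sugar phosphates, next to activase, had lower transcript levels too. The CBBY-like gene LOC106759701, whose product in Arabidopsis breaks down the inhibitor xylulose bisphosphate, fell from 889 ± 108 CPM (SD, n = 3) to 171 ± 53.5 in LT and 197 ± 14.6 in LT+S (log2 -2.38 and -2.17). LOC106774445, with the same description, was at -0.46 and -0.45, which passed under TMM and turned above 0 under library totals. The 2-carboxyarabinitol phosphatase genes LOC106756511 and LOC106776279 fell by 1.30 and by 1.84 in LT, and by 1.08 and by 1.55 in LT+S. Among the methyltransferases of the large subunit, LOC106766684 and LOC106779984 fell by 1.10 and by 1.42 in LT and by 0.95 and by 1.32 in LT+S (the call of LOC106766684 in LT+S was lost with library totals, at -0.46), while LOC106758042 did not pass at 0.18 and 0.38. RuBisCO-associated protein LOC106758942, at under 4 CPM in each library, did not pass either (-1.79, adjusted p = 0.187, and -0.23, adjusted p = 0.87).

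Calvin cycle enzymes, which use the carbon that Rubisco fixes, were called lower for 15 of 18 genes in LT (median -1.70) and for 16 of 18 in LT+S (median -1.57), and none was called higher (edgeR; at an unadjusted p under 0.05 none was higher either, while with library totals 2 and 1 were called higher). Ribose-5-phosphate isomerase 4 (LOC106775859) fell by 2.54 and by 2.57, triosephosphate isomerase (LOC106758020) by 2.18 and by 1.94, and transketolase (LOC106772090) by 2.29 and by 2.23. The activases, at -1.59 to -1.72, lay near the median of these listed genes, and carbonic anhydrase lay far below it. The list is not complete: phosphoglycerate kinase 2, chloroplastic (LOC106762222), at -3.18 in LT and -2.87 in LT+S, is not in it. It also holds CP12-2, which is not an enzyme of the cycle. Chloroplast thioredoxins and their reductases were lower for 9 of 10 genes in LT (median -1.23) and 8 of 10 in LT+S (median -1.11). Which of these thioredoxins act on activase was not examined. Thioredoxin X (LOC106771012) fell by 2.14 and by 2.18 and thioredoxin M4 (LOC106754642) by 1.77 and by 1.75. Thioredoxin Y1 (LOC106770967) fell by 1.25 and by 1.06. Thioredoxin M2 (LOC106755572) was at -0.53 (adjusted p = 0.0395) and -0.31 (adjusted p = 0.195). The exception was thioredoxin M3 (LOC106766942), which rose by 1.29 and 1.56 in log2 units.

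Genes of guard cells, where carbonic anhydrase acts in the response to CO2, and of stomatal patterning were called in both directions, more of them higher than lower. Of 21 tested, 5 were lower and 10 higher in LT (median 0.44), and 4 were lower and 8 higher in LT+S (median 0.56). These counts were unsteady, with as few as 2 lower (without LT replicate 3) and 4 higher (without CK replicate 2) in LT, and 4 higher in LT+S without CK replicate 2 or LT+S replicate 3. With library totals 16 were higher in LT and 15 in LT+S. The share called lower in LT, 23.8%, was close to the 23.7% of all genes, and in LT+S it was 19.0% beside 21.9%. The share called higher, 47.6% in LT and 38.1% in LT+S, was above the 22.8 and 19.7% of all genes. SRK2E (LOC106766756), a kinase of abscisic acid signalling in guard cells, rose by 0.85 and 0.79. HT1 (LOC106775329), a kinase that in Arabidopsis acts downstream of carbonic anhydrase in the CO2 response, fell by 0.93 and by 1.53. EPIDERMAL PATTERNING FACTOR-like genes LOC106761597 and LOC106771353 moved apart, at 2.27 and 2.56 for the first and at -3.18 and -2.44 for the second, and both had under 4 CPM in every library.

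Between the chilled groups with and without uniconazole, no difference was called for any of the 3 genes. In LT+S against LT the log2 difference was -0.04 for RCA (95% interval -0.95 to 0.86, edgeR adjusted p = 0.992), -0.10 for RCA1 (-0.62 to 0.42, adjusted p = 0.958) and 0.42 for carbonic anhydrase (-0.84 to 1.67, adjusted p = 0.928). The unadjusted p were 0.921, 0.669 and 0.471. The intervals leave room for nearly 2-fold differences of RCA in either direction and for larger ones of carbonic anhydrase, so that equal levels are not shown. Across all genes edgeR called 3 of 19304 in this comparison, 0.0155%, with 1364 at an unadjusted p under 0.05, and DESeq2 called 228.

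LT replicate 2 weighed most on these values. Without it, the difference of LT+S from LT became 0.33 for RCA, 0.04 for RCA1 and 1.51 for carbonic anhydrase (edgeR adjusted p = 0.0918). All 3 LT+S libraries were then above both remaining LT libraries for carbonic anhydrase (160.4 to 248 against 65.8 and 70.6 CPM). Over all genes tested, with every library kept, LT+S and LT did not overlap for 14.1%. The share for 3 libraries against 2, which separate more easily, was not computed, and nothing is read from this separation. Without LT replicate 1 or 3 the carbonic anhydrase value was 0.09 and 0.07. With LT replicate 3 left out, RCA was at -0.32.

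**Figure D4:**
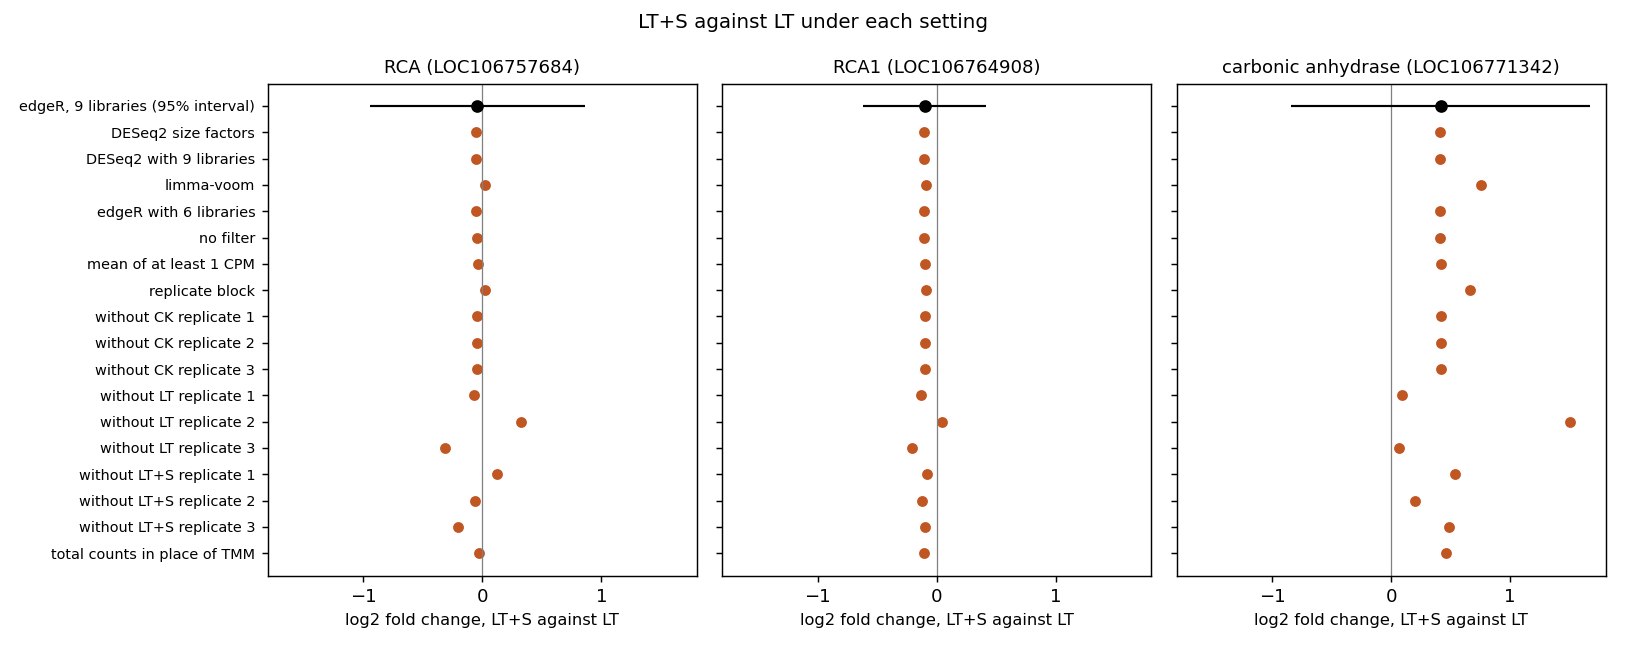
Log2 fold change of LT+S against LT for RCA, RCA1 and carbonic anhydrase under each setting; the black point is the edgeR fit of 9 libraries with its 95% interval, and orange points are the alternatives. RCA and RCA1 stay near 0, at -0.32 to 0.33 and -0.21 to 0.04 when single libraries are left out, whereas carbonic anhydrase runs from 0.07 to 1.51, the highest value being that without LT replicate 2.

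The genes around Rubisco and carbonic anhydrase were not called in that comparison either. EdgeR, DESeq2 and limma-voom called 0 genes in LT+S against LT in the lists on Rubisco, carbonic anhydrases, Calvin cycle enzymes, thioredoxins and guard cells. At an unadjusted p under 0.05, edgeR had 0 of 19 on Rubisco, 2 of 15 carbonic anhydrases, 1 of 18 Calvin cycle enzymes, 0 of 10 thioredoxins and 1 of 21 guard cell genes. Of the 19 genes on Rubisco, 17 had a value above 0, with a median of 0.20 beside -0.01 for all genes tested, and 14 of 18 Calvin cycle enzymes did, with a median of 0.18. The smallest p among carbonic anhydrases was that of alpha carbonic anhydrase 7 LOC106759052 (0.99, SE 0.37, adjusted p = 0.613), at 1.98, 3.01 and 2.85 CPM in LT and 3.25, 3.62 and 8.66 in LT+S. CP12-2 (LOC106771263), a small protein that holds Calvin cycle enzymes inactive in the dark, was at 0.55 (adjusted p = 0.731), phosphoglycerate kinase LOC106772619 at 0.38 (adjusted p = 0.637) and aldolase 3 (LOC106772501) at -0.29 (adjusted p = 0.713). EPIDERMAL PATTERNING FACTOR-like protein 6 (LOC106764336) was at -1.02 (adjusted p = 0.672).

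The 3 genes departed from their group means together in some libraries and not in others. In LT, replicate 2 was above its group mean for all 3 genes, by 0.64 for RCA, 0.27 for RCA1 and 1.42 for carbonic anhydrase in log2 units, and replicate 3 was under it for all, at -0.69, -0.23 and -0.76. In LT replicate 1, RCA was at 0.04, RCA1 at -0.04 and carbonic anhydrase at -0.66. In CK the genes went apart: carbonic anhydrase was lowest in replicate 1 and highest in replicate 3 (-0.31 and 0.36), while RCA (0.12 and -0.15) and RCA1 (0.10 and -0.09) had the reverse order. In LT+S the deviations of RCA1 stayed within 0.04, those of RCA ran from -0.37 to 0.30, and those of carbonic anhydrase from -0.25 to 0.38, and in LT+S replicate 3 RCA was above its mean (0.30) and carbonic anhydrase under it (-0.13). Over the 9 libraries the Pearson correlation of deviations was 0.89 between RCA and RCA1, 0.69 between RCA and carbonic anhydrase and 0.75 between RCA1 and carbonic anhydrase, a description over points that share libraries and depth.

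**Figure D5:**
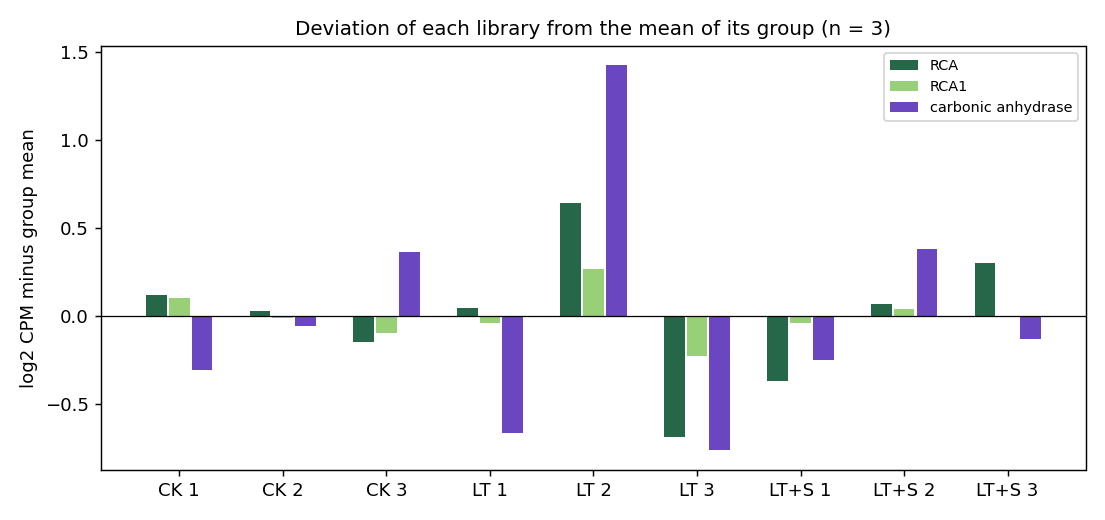
Deviation of log2 CPM from the mean of the group (n = 3) in each library, for RCA (dark green), RCA1 (light green) and carbonic anhydrase (purple). LT replicate 2 is above its group mean for all 3 genes (0.64, 0.27 and 1.42) and LT replicate 3 under it for all, while in CK replicate 3 carbonic anhydrase is above and both activases are under the mean.

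Markers of veins moved with carbonic anhydrase between some libraries. Of 57 vascular and secondary wall genes 37 were tested. The summed level of all 57 was 80.9, 429.4 and 745.6 CPM in CK replicates 1 to 3, the order that carbonic anhydrase and the small chain genes had there. It was 370.7, 587.2 and 214.7 CPM in LT, highest in replicate 2 and lowest in replicate 3 as for the 3 genes. In LT+S it was 383.7, 334.8 and 299.3 CPM, where the order differed from that of carbonic anhydrase. That order depended on the measure. The median log2 CPM of the 37 tested genes in LT+S was 2.18, 2.48 and 2.21, the order of carbonic anhydrase. Their mean log2 CPM was 2.16, 1.56 and 1.58, another order. From 8 to 16 of the 57 genes were at 0 in a library. Against CK, edgeR called 0 of the 37 lower and 2 higher in LT (2 lower at an unadjusted p under 0.05). In LT+S it called 3 lower and 2 higher. The shares were 0 and 5.41% in LT, where the whole set of 19304 had 23.7 and 22.8%. In LT+S they were 8.11 and 5.41%, where the whole set had 21.9 and 19.7%. The summed levels of both chilled groups lay within the range of CK. The part of vein content in the values of the 3 genes was not tested.

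Activase transcripts follow the circadian clock in Arabidopsis, and the hour at which leaves were taken is not given in the sources used here. Of 17 morning clock genes tested 9 (52.9%) were lower and 1 (5.88%) higher in LT, and 8 (47.1%) lower and none higher in LT+S. Over all genes tested the shares were 23.7% lower and 22.8% higher in LT, and 21.9 and 19.7% in LT+S. The summed level of all 18 genes in the morning list was 6165 to 8006 CPM in CK, 3622 to 4397 in LT, and in LT+S 3767 to 4160. Of 12 evening clock genes tested 1 (8.33%) was lower and 8 (66.7%) higher in LT, and 1 (8.33%) lower and 7 (58.3%) higher in LT+S. The summed level of all 13 genes in the evening list was 755 to 962 CPM in CK, 1518 to 1723 in LT, and in LT+S 1614 to 1762. The part of these clock genes in the levels of the activases was not tested. Genes of leaf senescence and chlorophyll breakdown were split. Of 15 tested, 7 (46.7%) were lower and 6 (40%) higher in LT, and 6 (40%) lower and 5 (33.3%) higher in LT+S, each above the share of all genes. The summed level of all 28 genes in that list was 1993 to 2291 CPM in CK, 2074 to 2632 in LT, and in LT+S 1817 to 2753.

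The genes whose log2 levels ran most closely with each of the 3 were listed over the 9 libraries, as a description in which the step between CK and the chilled groups dominates. For RCA these were cytoplasmic fructose-bisphosphate aldolase (LOC106765223, Pearson r 0.996), NAD(P)H-quinone oxidoreductase subunit S (LOC106774086), SR1IP1 (LOC106778069), actin (LOC106756098) and BIG GRAIN 1-like E (LOC106778787, r 0.988). For RCA1 they were LNK2 (LOC106768266), a clock gene of the morning, SUPPRESSOR OF QUENCHING 1 (LOC106757621), bZIP53 (LOC106757069), SYM1 (LOC106762903) and UDP-glycosyltransferase 73C2 (LOC106757870), all at 0.995 or 0.996. For carbonic anhydrase they were glyceraldehyde-3-phosphate dehydrogenase A (LOC106753937), phosphoribulokinase (LOC106777824), divinyl chlorophyllide a 8-vinyl-reductase (LOC106776114), phosphoglycerate kinase 2 (LOC106762222) and glucose-6-phosphate isomerase 1 (LOC106765254), each at 0.996. These 5 genes were at -2.23 to -3.31 in LT against CK, beside -6.26 for carbonic anhydrase.

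With the group means taken out, the closest genes were mostly others. They were taken as the highest of all described genes tested, over 9 libraries, so that a high r is built into the choice and nothing is read from their functions. SR1IP1 (LOC106778069, r 0.994) and aldolase LOC106765223 (r 0.992) remained beside RCA, joined by formate-tetrahydrofolate ligase (LOC106772396), WRKY57 (LOC106755320) and fluoride export protein 1 (LOC106759959). Beside RCA1 stood pheophytinase (LOC106756159, r 0.998), an enzyme of chlorophyll breakdown, the copper chaperone for superoxide dismutase (LOC106768919), a second LNK2 gene (LOC106761989), WRKY22 (LOC106758133) and a putative rhamnosyltransferase (LOC106754259). Beside carbonic anhydrase stood a regulator of transcription subunit 4 (LOC106764742, r 0.977), prolyl oligopeptidase A (LOC106764782), DOF5.3 (LOC106758753), dicarboxylate transporter 1 (LOC106756248) and thioredoxin X (LOC106771012, r 0.965).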

How the data were processed

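Leaf RNA was isolated with Trizol, selected by poly-A and sequenced. Per the study's methods, the reads were trimmed with Trimmomatic, mapped by hisat2 to the Vradiata_ver6 assembly and assigned to genes by htseq-count. The submitters' processing notes name CASAVA 1.8, Trimmomatic, HISAT2 and Cufflinks. The values deposited by the authors are raw counts per gene, with no normalization; the strand setting is not given in the sources used here. Of 26966 genes, 3736 had no count, and 26961 identifiers were found in RefSeq's gene table (assembly Vradiata_ver6), which gave positions. For the 9 libraries, edgeR 4.0.16 was run under R 4.3.3. Genes were filtered with filterByExpr, libraries scaled by TMM, and groups tested with glmQLFit and glmQLFTest in 1 fit with 6 residual degrees of freedom. The Benjamini-Hochberg adjustment covered 19304 genes, and the threshold was 0.05. Log2 CPM used a prior count of 2. The intervals of 95% come from the fit. Ratios were compared by exact permutation. Only the ratio of RCA to RCA1 was in the analysis plan, and the other ratios were outside it.

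The 3 genes and the 9 gene lists were chosen with earlier results of these data known. The list patterns were also edited to the wording of the descriptions after these had been seen. Named were the 3 genes, each tested gene of the Rubisco and carbonic anhydrase lists, the 3 genes with the smallest p per comparison in the Calvin cycle, thioredoxin and guard cell lists, and the 5 described genes most correlated with each of the 3 genes. The lists on Rubisco and carbonic anhydrase leave out the 3 genes themselves. The procedure was also run on simulated counts. In these a small part of the genes changed, as many up as down, and alike in LT and LT+S. The run therefore did not probe the composition shift between CK and the chilled libraries, or a difference of LT+S from LT. Alternatives were DESeq2 1.42.0, its size factors in edgeR, limma-voom (limma 3.58.1), edgeR with 6 libraries, a filter at a mean of 1 CPM or none, a block for the replicate number, the omission of single libraries, and library totals in place of TMM, the last added after the data were seen. No library was a copy of another, since at least 98.1% of tested genes differed between any 2. Figures were drawn with matplotlib 3.10.9. Groups of 3 are too small for an outlier test, and none was made. Soybean, metabolites and sequences were not analysed here.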

Additional observations from a re-analysis of the deposited data

How the results depend on the processing

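In all, 2246 alternative values were computed, of which 2125 kept their direction and call or stayed within the limits set for a move, 58 moved, 27 changed sign, 28 lost a call and 8 gained one. The causes were not tested, beyond what a setting does by construction. The lower levels of RCA, RCA1 and carbonic anhydrase in both chilled groups against CK kept their direction under every setting run. With single libraries left out, RCA ran from -1.96 to -1.32 in LT against CK, RCA1 from -1.76 to -1.51 and carbonic anhydrase from -7.34 to -5.91, and in LT+S against CK from -1.80 to -1.47, -1.76 to -1.66 and -6.05 to -5.64. With total counts in place of TMM, RCA and RCA1 were at -1.11 and -1.12 in LT, and RCA, RCA1 and carbonic anhydrase at -1.14, -1.22 and -5.34 in LT+S. The same scaling left 5 carbonic anhydrase genes lower in LT and 5 in LT+S, made 2 of them higher in LT, 2 and 1 Calvin cycle genes higher, and 16 and 15 guard cell genes higher with 3 lower in LT; over all genes it gave 9275 higher and 2314 lower in LT and 8979 and 1997 in LT+S.

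It also turned the sign of LOC106769716 (0.15 in LT, 0.29 in LT+S), LOC106774445 (0.040 and 0.046), LOC106758936 (0.087 and 0.28), LOC106761993 (0.11 and 0.17), LOC106778103 (0.070 and 0.036), LOC106771665 (0.45 in LT) and LOC106758942 (0.27 in LT+S; 1.50 with limma-voom). Without a filter, 2 carbonic anhydrase genes were higher in LT and 1 in LT+S. Limma-voom had 3 guard cell genes lower in LT and 1 carbonic anhydrase gene higher in LT+S, and put RCA at 0.026 in LT+S against LT. EdgeR with 6 libraries had 6 guard cell genes higher in LT, and 0 genes higher and 0 lower in LT+S against LT, with 1622 at an unadjusted p under 0.05. DESeq2 with 9 libraries had 121 higher and 107 lower there.

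No pairing of replicate numbers is described in the sources used here. Of 9 same-number correlations of deviations, 2 were above 0.1 (range -0.30 to 0.27), and 2 of 9 libraries correlated best with their own number. With 3 libraries per group, these values cannot show whether equal numbers shared more than a number. With the replicate block, 2 carbonic anhydrase genes were higher and 3 guard cell genes lower in LT, 1 Rubisco gene and 1 carbonic anhydrase gene were higher in LT+S, RCA was at 0.019 in LT+S against LT, and 4 genes were higher and 2 lower over all genes in that comparison.

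With single libraries left out, LT+S against LT ran from -0.32 to 0.33 for RCA, -0.21 to 0.041 for RCA1, and 0.07 to 1.51 for carbonic anhydrase, and the log2 ratio of RCA to RCA1 from -0.11 to 0.31. Counts over all genes there ran from 0 to 4 higher and 0 to 3 lower. Guard cell genes ran from 2 to 5 lower and 4 to 9 higher in LT and from 4 to 9 higher in LT+S, and Rubisco and carbonic anhydrase genes from 1 to 2 higher each in LT+S. Values of LOC106774376 lay between -0.15 and 0.80 in LT and between -0.011 and 0.94 in LT+S, LOC106761538 from -0.18 to 0.89 in LT, LOC106771665 from -0.17 to 0.067 in LT, LOC106758942 from -0.82 to 0.84 in LT+S and LOC106778389 from -0.060 to 0.40 in LT+S. Depth limits little for the 3 genes, whose lowest count was 1616, whereas 3 libraries per group limit the intervals of LT+S against LT.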
